A study of Homo sapiens with 4 samples.

Results

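Immediate early genes are genes that a cell switches on within minutes of a stimulus, without first making new protein. The 10 genes described here were EGR1, FOS, FOSB, FOSL1, JUN, JUNB, IER2, IER3, ZFP36 and KLF6, taken by gene symbol from 24462 genes. They were selected on the read counts of these same libraries, after EGR1 had come out as one of the firmest falls in the knockdown library, so their values in that comparison are a description. All 10 had an entry in the deposited tables. IER3 was listed under 6 entries, of which 1 held all the reads, and the entries were summed.

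The libraries came from HepG2, which the authors list among human hepatocellular carcinoma cell lines and kept in RPMI with fetal bovine serum. Each of 4 conditions had 1 library. The DMSO library is the solvent control of the library treated with PD0332991, an inhibitor of the kinases CDK4 and CDK6. The scrambled siRNA library is the control of the library from cells given siRNA against CDK4 and CDK6 together (CDK4/6 KD). The latter pair carry a transfection that the DMSO and PD0332991 libraries lack, and the sources used here give neither the drug's dose and exposure nor how long after transfection RNA was taken. With 1 library per condition no difference had a replicate check, no p-value was computed, and culture-to-culture variation cannot be told apart from treatment. RNA was read from the 3′ end of transcripts (QuantSeq 3′ mRNA sequencing), so 1 transcript gives about the same number of reads whatever its length, and levels are given in CPM, the usual read count scaled to a library size of 1000000 reads, after TMM scaling, a correction of library size. A fold change is a ratio of these levels with 0.5 reads added, for genes that had 10 or more reads in one of the libraries compared, and its bracketed 95% interval is a Clopper-Pearson interval that covers counting error only. A bulk level cannot separate fewer expressing cells from less RNA per cell.

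Total counts ran from 8983848 to 11176880 reads. The targeted genes were lower in the knockdown library: CDK4 went from 3789 reads in the scrambled siRNA control to 814, and CDK6 from 5734 to 1464. All 12 hepatocyte and HepG2 markers were present, with a summed level of 19429 CPM in DMSO and 24689 CPM in CDK4/6 KD. The 6 keratinocyte markers summed to 4.16 CPM in DMSO, 71.8 CPM in PD0332991, 9.16 CPM in scrambled siRNA and 16.1 CPM in CDK4/6 KD. Of these, TP63 and DSG3 had 2 reads or fewer in each library. The 4 with enough reads for a fold change were all at least 2-fold higher in PD0332991 than in DMSO. Their median log2 fold change was 4.36, and 7.49% of all 13443 genes were that much higher than in DMSO, by 2-fold or more. The 6 fibroblast markers summed to 48.3, 78.9, 8.6 and 22.7 CPM in the same order. The 5 leukocyte markers summed to 747, 509, 1023 and 504 CPM in that order too. In each library 2 of the 5 had 3 reads or fewer. Of the 3 with enough reads for a fold change, 2 were at least 2-fold lower in scrambled siRNA than in DMSO. Of all 13303 genes, 6.64% were that low. Only 1 had an interval above 1, the way the sum went, so the sum does not stand for the list. The T cell gene CD3E from that list and the endothelial genes CDH5 and KDR had 0 reads in all 4 libraries. The part of these marker differences in the results below was not tested.

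Growth factors and stress reach immediate early genes through kinase cascades. The ERK cascade phosphorylates ETS proteins such as ELK1, which sit with serum response factor (SRF) on CArG boxes in the promoters of EGR1 and FOS, and CREB family proteins act at ATF/CREB sites nearby. The products are mostly transcription factors: EGR1 is a zinc finger activator, and FOS and JUN proteins pair to form AP-1. The transcripts are short-lived, in many cases through AU-rich elements in the 3′ UTR, which ZFP36 binds to speed decay. In liver, several of these genes are known for their rapid rise after partial hepatectomy.

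Promoters of 8 of the 10 genes were found in the RefSeq table (GRCh38.p14), all but those of FOSL1 and IER3. The 250 bases before the start of EGR1, FOS and JUN are shown because EGR1 and JUN lay at opposite ends of the members' range in CDK4/6 KD, and FOS is the best studied of the group. Capitals mark CArG boxes, TATA motifs (TATAAA) and the ATF/CREB core (TGACGT, or ACGTCA on the other strand).
EGR1 promoter, chr5:138465229-138465478, plus strand: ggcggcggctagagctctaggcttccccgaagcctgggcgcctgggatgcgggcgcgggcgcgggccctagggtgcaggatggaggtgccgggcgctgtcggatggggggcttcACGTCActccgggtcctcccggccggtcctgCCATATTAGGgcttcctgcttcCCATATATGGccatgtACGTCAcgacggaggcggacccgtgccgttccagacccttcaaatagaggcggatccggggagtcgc
FOS promoter, chr14:75278578-75278827, plus strand: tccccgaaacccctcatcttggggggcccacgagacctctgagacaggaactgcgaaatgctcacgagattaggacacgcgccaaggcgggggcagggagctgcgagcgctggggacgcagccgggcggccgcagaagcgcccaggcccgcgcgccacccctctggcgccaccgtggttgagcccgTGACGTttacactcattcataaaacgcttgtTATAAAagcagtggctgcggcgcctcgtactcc
JUN promoter, chr1:58784048-58784297, minus strand: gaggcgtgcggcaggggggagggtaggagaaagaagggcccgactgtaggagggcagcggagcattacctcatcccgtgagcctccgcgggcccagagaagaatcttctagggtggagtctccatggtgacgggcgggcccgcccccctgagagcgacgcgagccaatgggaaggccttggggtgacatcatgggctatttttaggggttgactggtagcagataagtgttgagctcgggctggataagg
EGR1 held 2 CArG boxes, at 105 to 96 and 83 to 74 bases before its start, and 2 ATF/CREB cores, at 136 to 131 and 67 to 62. Among 35116 promoters of this length, 1.16% held a CArG box and 7.1% an ATF/CREB core, counted on both strands. FOS held 1 ATF/CREB core and 1 TATA motif, and FOSB held the same pair and an ETS core (CCGGAA) as well. No CArG box was found in the 250 bases of FOS, and bases farther upstream were not searched. JUNB held a TATA motif, which 10.7% of promoters did, and IER2 held 1 ETS core, on the other strand. An ETS core, counted only as CCGGAA on either strand, was found in 14.5% of promoters, and other ETS sites would be missed. None of these letters was found in the window of JUN, ZFP36 or KLF6. The AP-1 motif TGACTCA, the full CRE TGACGTCA, which contains the ATF/CREB core, and the EGR motif GCGTGGGCG were in none of the 8 windows. Only these exact letters were searched, so variant AP-1 and ATF/CREB sites would be missed. The windows of JUN and KLF6 hold TGACATCA, a near variant of the full CRE that was not searched for. A match describes letters and is no sign of a bound site.

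The 3′ UTRs of GENCODE 29 transcripts (GRCh38) differed as much. IER3, on chromosome 6 at 30743199 to 30744554, carried 4 copies of TATTTAT, a short AU-rich element, in 737 bases, and 0.448% of 1339 expressed genes with a 3′ UTR within 20% of that length had as many. EGR1, on chromosome 5 at 138465490 to 138469315, carried none in 1234 bases. ZFP36 had 3 copies, FOS 2, FOSB, FOSL1, JUN and KLF6 1 each, and JUNB and IER2 none. The longer element TTATTTATT, which 8.19% of 12032 expressed genes had, was found in FOS and ZFP36. The first copy in IER3 and in FOS is shown with its flanks and the element in capitals, since IER3 was the most abundant member and FOS among the least.
IER3 3′ UTR site: tcctaattaaTATTTATatgtatttat
FOS 3′ UTR site: gtttttaattTATTTATtaagatggat
These AU-rich counts did not order the genes by level: IER3 was the highest member and ZFP36 and FOS among the lowest.

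IER3 was the most abundant member in all 4 libraries. It took 60.7% of the members' summed level in DMSO, 56.5% in PD0332991, 68.9% in scrambled siRNA and 34.1% in CDK4/6 KD. KLF6 came next in every library. JUN and IER2, in either order, followed in DMSO, PD0332991 and CDK4/6 KD, and in scrambled siRNA EGR1 stood between IER2 and JUN. ZFP36, FOS and FOSB were at the bottom throughout. Neighbours in this order that differed by no more than counting error were JUN and IER2 in DMSO, JUNB and EGR1 in DMSO and in PD0332991, FOSL1 and EGR1 in CDK4/6 KD, and, among the rarest genes, FOS and FOSB in every library but scrambled siRNA, ZFP36 and FOSB in PD0332991 and ZFP36 and FOS in scrambled siRNA. The summed level of the 10 genes was 1047 CPM in DMSO, 759 CPM in PD0332991, 2490 CPM in scrambled siRNA and 709 CPM in CDK4/6 KD. Without IER3 the order of the libraries changed, with 411, 331, 775 and 467 CPM.

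**Figure D1:**
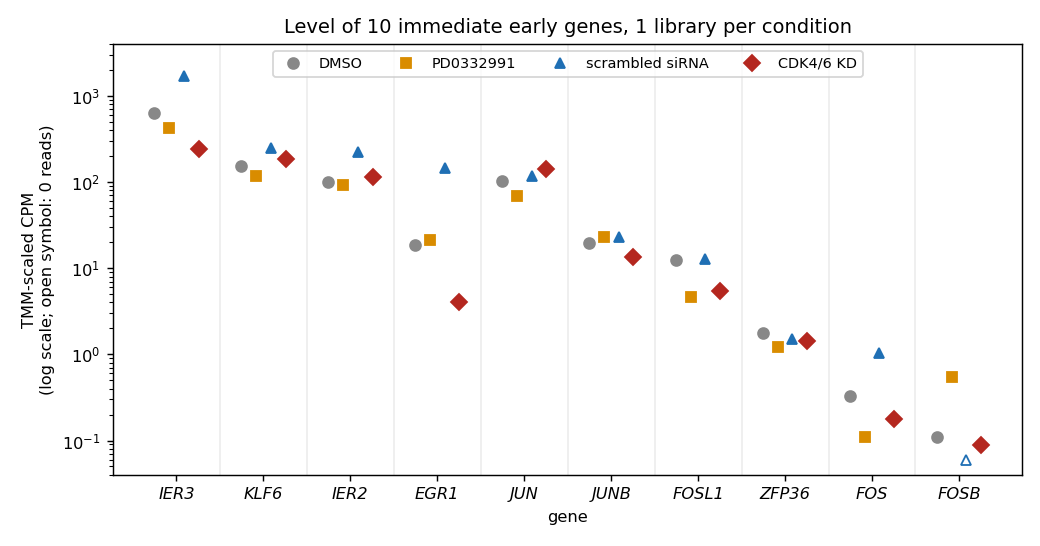
Level of each gene in TMM-scaled CPM on a log axis, with 1 symbol per library and an open symbol for 0 reads. IER3 sits highest in each library, and EGR1 spans the widest range of the well-counted genes, from 4.06 CPM in CDK4/6 KD to 147 CPM in scrambled siRNA.

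EGR1 had 172 reads in DMSO, 193 in PD0332991, 1576 in scrambled siRNA and 46 in CDK4/6 KD. The scrambled siRNA library stood far above the others and the knockdown library was the lowest. In CDK4/6 KD the level of EGR1 was 0.0279 of that in scrambled siRNA (0.0201 to 0.037), which is 35.9-fold lower. Its fold change ranked sixth lowest of 13617 genes, and by the interval end nearest to 1 it came second, between IGFBP1 (0.0359) and TNS4 (0.0968), whose values bound it on either side. Against DMSO, EGR1 was 7.81-fold higher in scrambled siRNA (6.68 to 9.21) and 0.218 as high in CDK4/6 KD (0.152 to 0.3). The size of the difference in the knockdown library thus depended on the control, while its direction did not. In PD0332991 the ratio to DMSO was 1.13 (0.912 to 1.39), an interval that includes 1.

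NAB1 and NAB2 are corepressors that EGR proteins bind, and NAB2 is itself an EGR1 target. NAB1 had 389, 298, 654 and 376 reads in DMSO, PD0332991, scrambled siRNA and CDK4/6 KD, and NAB2 had 332, 399, 515 and 352. Both were highest in scrambled siRNA, as EGR1 was, over a narrower range. The ratio of CDK4/6 KD to scrambled siRNA was 0.544 (0.477 to 0.618) for NAB1 and 0.646 (0.563 to 0.741) for NAB2. The EGR1 paralogs EGR2 and EGR3 were barely counted, with 7 and 4 reads in scrambled siRNA and 0 reads each in CDK4/6 KD, so no fold change was given.

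FOS and FOSB, which pair with JUN proteins in AP-1, were at or near the limit of detection. FOS had 3 reads in DMSO, 1 in PD0332991, 11 in scrambled siRNA and 2 in CDK4/6 KD. Only scrambled siRNA passed the filter, and the ratio of CDK4/6 KD to it was 0.207 with an interval from 0.0185 to 0.788. FOSB had 1, 5, 0 and 1 reads in the same order and passed no filter, so a difference was not detectable at this depth. A count of 0 among 11176880 reads allows up to 3 reads.

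FOSL1 encodes FRA-1, a FOS family protein that lacks the strong activation domain of FOS. It had 115 reads in DMSO, 42 in PD0332991, 137 in scrambled siRNA and 62 in CDK4/6 KD. Both libraries with CDK4/6 targeted were low and both controls were high, and the controls differed by no more than counting error, at 1.02-fold (0.788 to 1.32). The level was 0.369 of DMSO in PD0332991 (0.251 to 0.526) and 0.43 of scrambled siRNA in CDK4/6 KD (0.312 to 0.582). FOSL1 was the only member at least 2-fold lower in both comparisons with a matched control, and in neither did the whole interval lie past 2-fold. A pseudogene, FOSL1P1, is annotated, and how reads shared with it were assigned is not given in the sources used here.

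JUN, the other partner of AP-1, had 939 reads in DMSO, 634 in PD0332991, 1251 in scrambled siRNA and 1614 in CDK4/6 KD. The knockdown library was the highest and the PD0332991 library the lowest. JUN was the one member with an interval above 1 in CDK4/6 KD against scrambled siRNA, at 1.22-fold (1.13 to 1.31), and its ratio of PD0332991 to DMSO was 0.678 (0.612 to 0.75). Neither reached 2-fold.

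JUNB, a JUN paralog that often restrains JUN, had 181, 210, 246 and 154 reads in DMSO, PD0332991, scrambled siRNA and CDK4/6 KD. Of these, the first 3 lay close together and the knockdown library was below them, with a ratio of 0.593 to scrambled siRNA (0.481 to 0.727) and 0.688 to DMSO (0.55 to 0.856). The end of JUNB overlaps HOOK2 on the other strand. Since strand-aware counting is not stated, it is not known to which gene reads from the overlap were assigned. HOOK2 itself was counted 118 times in the control and 168 times in the knockdown library, a ratio of 1.34 (1.06 to 1.72).

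IER2 is a small nuclear regulator and IER3 a membrane-bound regulator of cell survival. IER2 had 912 reads in DMSO, 845 in PD0332991, 2374 in scrambled siRNA and 1287 in CDK4/6 KD. It was highest in scrambled siRNA, 2.22-fold above DMSO (2.06 to 2.4), and CDK4/6 KD lay between these controls, at 0.513 of scrambled siRNA (0.478 to 0.549) and 1.14 of DMSO (1.05 to 1.24). Relative to DMSO, then, IER2 was not lower in the knockdown library.

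IER3 had 5812 reads in DMSO, 3904 in PD0332991, 18350 in scrambled siRNA and 2736 in CDK4/6 KD. It was the 56th most counted gene of scrambled siRNA and the 724th of CDK4/6 KD. The ratio of CDK4/6 KD to scrambled siRNA was 0.141 (0.135 to 0.147), or 7.09-fold lower, and to DMSO it was 0.38 (0.363 to 0.398). PD0332991 was lower than DMSO too, with a ratio of 0.674 (0.647 to 0.702). IER3 and EGR1 were the members whose whole interval lay past 2-fold in CDK4/6 KD against scrambled siRNA. The antisense gene IER3-AS1 overlaps the end of IER3, with the same limit on strand.

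ZFP36 had 16 reads in each of DMSO, scrambled siRNA and CDK4/6 KD and 11 in PD0332991. None of the comparisons made differed beyond counting error, and the interval of CDK4/6 KD to scrambled siRNA, 0.443 to 2.02, left room for about a 2-fold difference either way. Its paralogs, which bind the same AU-rich elements, were far more abundant. ZFP36L1 had 2492, 1560, 4360 and 2375 reads in DMSO, PD0332991, scrambled siRNA and CDK4/6 KD, and ZFP36L2 had 1546, 1087, 915 and 1011. ZFP36L1 was highest in scrambled siRNA, with a ratio of CDK4/6 KD to it of 0.515 (0.49 to 0.541), while ZFP36L2 was highest in DMSO and had a ratio of 1.04 (0.954 to 1.14).

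KLF6, a zinc finger factor that binds GC-rich promoters, had 1419 reads in DMSO, 1070 in PD0332991, 2683 in scrambled siRNA and 2105 in CDK4/6 KD. Both transfected libraries were above both others. The ratio of scrambled siRNA to DMSO was 1.61 for KLF6 (1.51 to 1.72), and the ratio to the matched control was almost equal in the 2 arms, 0.742 for CDK4/6 KD (0.7 to 0.786) and 0.757 for PD0332991 (0.698 to 0.82).

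**Figure D2:**
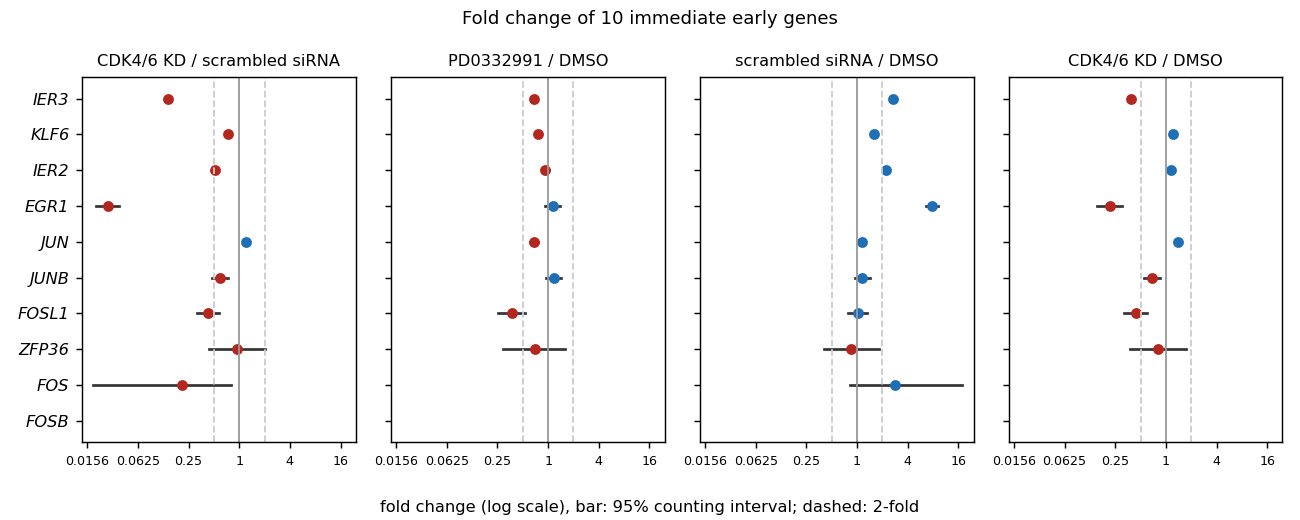
Fold change of each gene on a log axis in 4 comparisons, with bars for the 95% counting interval and dashed lines at 2-fold. FOSB is blank throughout and FOS in 2 panels because they passed no filter there. EGR1 lies at 0.0279 in CDK4/6 KD against scrambled siRNA and at 1.13 in PD0332991 against DMSO.

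In CDK4/6 KD against scrambled siRNA, 9 of the 10 members passed the filter and 4 of them were at least 2-fold lower, namely EGR1, IER3, FOS and FOSL1. Of all 13617 genes, 7.62% were that low. None of the members was 2-fold higher, against 9.19% of all genes. The members' median log2 fold change was -0.96, and that of all genes was near 0. Nothing is read from these counts, since this comparison chose the members and FOS passed only through its high library.

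In PD0332991 against DMSO, 8 members passed and 1, FOSL1, was at least 2-fold lower, where 7.06% of 13443 genes were that low, and none was 2-fold higher, where 7.49% were. The members' median log2 fold change was -0.46 and that of all genes 0.02. The intervals of FOSL1, JUN, IER3 and KLF6 lay below 1, and no interval lay above it. The share of all genes with such intervals is not given here, so nothing is read from this count. EGR1, JUNB, IER2 and ZFP36 had intervals that include 1. All 10 proliferation markers were at least 2-fold lower in the same comparison, with a median of -2.97. In CDK4/6 KD against scrambled siRNA 5 of the proliferation markers were, with a median of -1.05, where 7.62% of 13617 genes were. Their part in the members' values was not tested.

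The control libraries themselves differed in some of these genes. In scrambled siRNA against DMSO, EGR1, FOS, IER3 and IER2 were at least 2-fold higher, 4 of the 9 members that passed, where 5.3% of 13303 genes were, and none was 2-fold lower, where 6.64% were. FOS was 2.85-fold higher with an interval from 0.827 to 17.5, which includes 1. It passed the filter only through its 11 reads in scrambled siRNA, so nothing is read from this count. With a pseudocount of 5 reads or a filter of 50 reads the count was 3. The members' median log2 fold change was 0.69, and that of all genes 0.01. This comparison shares the scrambled siRNA library with the one that chose the members, so its direction is not independent of the choice.

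Against DMSO, CDK4/6 KD had 3 of 8 members at least 2-fold lower, EGR1, IER3 and FOSL1, where 8.16% of 13512 genes were that low, and none 2-fold higher, where 8.04% were. The median was -0.42. The knockdown library was also part of the comparison that chose the members, so the direction against DMSO is not independent of the choice either. JUN, KLF6 and IER2 had intervals above 1 here, with ratios of 1.39, 1.2 and 1.14. Beyond counting error, EGR1, IER3, FOSL1 and JUNB were lower in the knockdown library than in either control, JUNB by less than 2-fold. KLF6 and IER2 lay between the controls, and JUN was above both. ZFP36 had intervals that include 1 in both comparisons, and FOS and FOSB had too few reads for a ratio to DMSO.

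**Figure D3:**
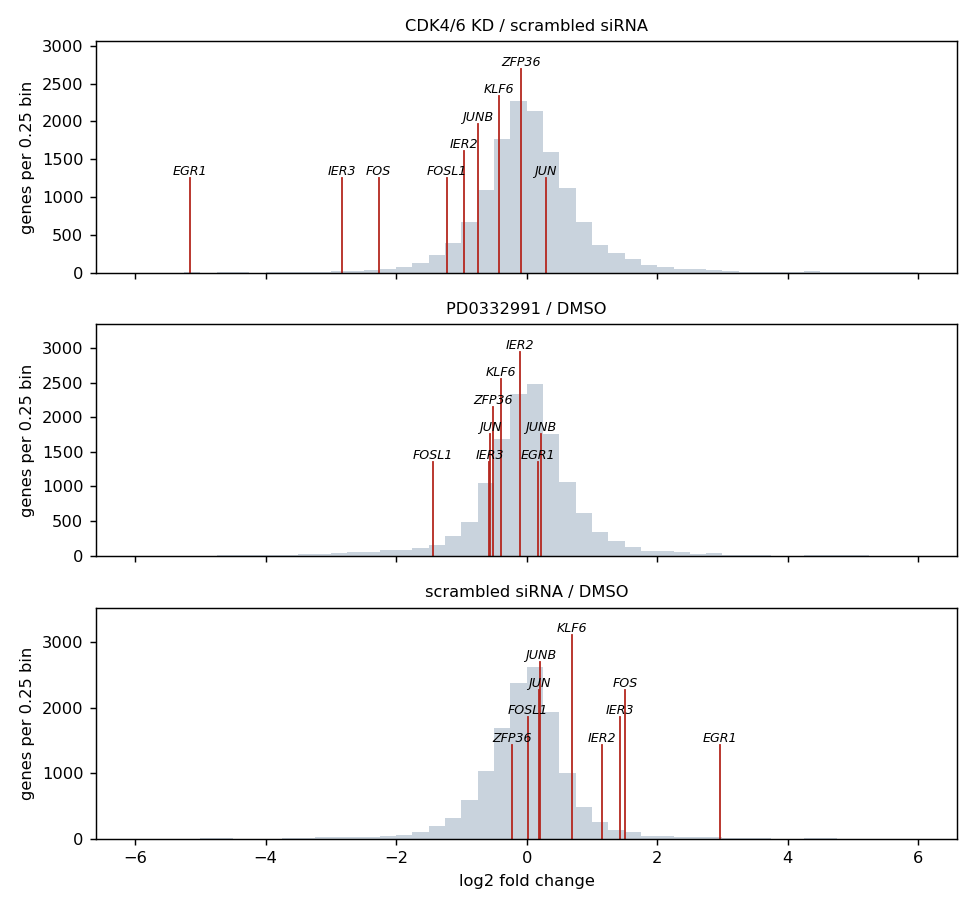
Histogram of log2 fold changes of all genes past the filter, in bins of 0.25, for 3 comparisons, with a red line at each member. In CDK4/6 KD against scrambled siRNA EGR1 stands at -5.16 and IER3 at -2.83, in PD0332991 against DMSO FOSL1 stands lowest at -1.44, and in scrambled siRNA against DMSO EGR1 stands highest at 2.96.

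Other immediate early genes did not share one direction. Of 18 further immediate early transcription factors, 11 passed the filter in CDK4/6 KD against scrambled siRNA, 1 was at least 2-fold lower and 2 were higher, with a median of -0.14. Of all 13617 genes, 7.62% were that low and 9.19% that high, which holds for each list below in this comparison. The lower one was BHLHE40, a repressor linked to the circadian clock, with 200 reads in the control and 52 in the knockdown library (ratio 0.248, 0.178 to 0.335). ATF3, a stress-induced partner of JUN, had 115, 181, 201 and 572 reads in DMSO, PD0332991, scrambled siRNA and CDK4/6 KD. It was highest in the knockdown library, as JUN was, at 2.69-fold (2.29 to 3.18) above scrambled siRNA. CEBPB was 2.04-fold higher (1.87 to 2.23) and CEBPD had a ratio of 0.572 (0.497 to 0.657). Against DMSO the knockdown ratios were 0.541 for BHLHE40 and 1.54 for CEBPB, short of 2-fold, and 4 for ATF3.

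FOSL2 and JUND are the remaining paralogs in the FOS and JUN families. FOSL2 had 81, 105, 211 and 208 reads in DMSO, PD0332991, scrambled siRNA and CDK4/6 KD, high in both transfected libraries, and its ratio of CDK4/6 KD to scrambled siRNA was 0.932 (0.766 to 1.13). JUND had 1457, 1482, 1460 and 1882 reads, from 136 CPM in scrambled siRNA to 166 CPM in CDK4/6 KD, with the same ratio as JUN, 1.22 (1.14 to 1.31). Among 11 EGR corepressors and AP-1 partners, 10 passed, 1 was lower and 3 were higher, among them JDP2 at 4.48-fold (3.61 to 5.64) and ATF2 at 2.53-fold (2.13 to 3.01). ATF2 had 460, 375, 186 and 498 reads, low in scrambled siRNA alone, and its ratio of CDK4/6 KD to DMSO was 0.874 (0.768 to 0.994). That of JDP2 was 5.05 (3.97 to 6.56). JDP2, a repressor that binds JUN, was also 3.08-fold higher in PD0332991 than in DMSO (2.37 to 4.07).

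Of 19 immediate early genes that are not transcription factors or were not grouped with them, 18 passed, none was 2-fold lower and 1 was higher in the knockdown library, and the median was -0.36. SIK1, a kinase that restrains CREB coactivators, was the higher one, at 3.31-fold (2.42 to 4.68). It had 113, 47, 49 and 173 reads in DMSO, PD0332991, scrambled siRNA and CDK4/6 KD, and its knockdown ratio to DMSO was 1.23 (0.969 to 1.58), which includes 1. The antiproliferative BTG2 and the kinase PLK3 had ratios of 0.531 (0.427 to 0.656) and 0.535 (0.424 to 0.67), and against DMSO both intervals included 1. Against DMSO, 10 of the 18 had an interval above 1 in scrambled siRNA and 2 below it. Without the share of all genes with such intervals, nothing is read from these counts.

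ERK feedback genes, which encode phosphatases and inhibitors that ERK signalling induces against itself, together with ETS factors it induces, lay lower in the knockdown library. Of 10 that passed, 6 were at least 2-fold lower and none higher, with a median of -1.49. Of all genes, 7.62% were that low. DUSP4, 1 of the 6, passed only through its 29 reads in scrambled siRNA, with 7 in CDK4/6 KD. Against DMSO, 5 of 9 that passed were at least 2-fold lower in CDK4/6 KD, with a median of -1.09. Of all 13512 genes, 8.16% were that low in this comparison. DUSP6, the phosphatase of ERK itself, had 1914, 2015, 4987 and 1115 reads in DMSO, PD0332991, scrambled siRNA and CDK4/6 KD. DUSP5 had 44, 34, 143 and 15 reads. In both genes scrambled siRNA was the highest library and CDK4/6 KD the lowest, with DMSO and PD0332991 close together, the same order of controls and knockdown as in EGR1. The ratio of CDK4/6 KD to scrambled siRNA was 0.211 (0.198 to 0.226) for DUSP6, 0.102 (0.0541 to 0.169) for DUSP5, 0.247 (0.167 to 0.349) for SPRY4 and 0.399 (0.355 to 0.448) for ETV4. In PD0332991 against DMSO none of the 10 reached 2-fold, and the median was -0.14. Of all 13443 genes, 7.06% were that low and 7.49% that high.

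Transcripts of the upstream factors moved less in CDK4/6 KD against scrambled siRNA. In PD0332991 against DMSO the 9 genes for SRF, its partners and CREB had a median of -0.32, and the ERK feedback genes -0.14. SRF had 2044, 2102, 2223 and 2537 reads in DMSO, PD0332991, scrambled siRNA and CDK4/6 KD, and a ratio of CDK4/6 KD to scrambled siRNA of 1.08 (1.02 to 1.14). ELK1, its ETS partner, had 196, 148, 194 and 97 reads and was lowest in the knockdown library, with a ratio of 0.474 (0.367 to 0.606). Of the 9 genes for SRF, its partners and CREB, 1 was at least 2-fold lower and 1 higher. The higher one, CRTC2, had 37, 3, 5 and 17 reads in the same library order. Its knockdown ratio was 0.378 to DMSO (0.196 to 0.675) and 3.02 to scrambled siRNA (1.14 to 11.1). Among 20 growth factor receptor and RAS-ERK cascade genes, NRAS was lower, at 0.355 (0.303 to 0.414), and ERBB3 and MAPK3 were higher, at 2.4-fold (2.2 to 2.63) and 2.37-fold (2.01 to 2.81). Both were low in scrambled siRNA, at 0.348 and 0.447 of DMSO, and against DMSO the knockdown ratios were 0.837 (0.781 to 0.895) and 1.06 (0.923 to 1.21). Of 10 JNK and p38 cascade genes that passed, 1 was 2-fold lower, MAP2K3, a kinase that activates p38, at 0.327 (0.302 to 0.353). These are transcript levels and say nothing of phosphorylation.

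Known targets of AP-1 and EGR1 were mixed. Of 13 that passed, 4 were at least 2-fold lower in the knockdown library than in its control and 1 was higher, with a median of -0.29. Of all genes, 7.62% were that low and 9.19% that high. PLAU, 1 of the 4, passed only through its 12 reads in the control, and its interval includes 1 (0.146 to 1.36). HBEGF, a ligand of the EGF receptor, had 23, 37, 83 and 13 reads in DMSO, PD0332991, scrambled siRNA and CDK4/6 KD. It was highest in scrambled siRNA and lowest in CDK4/6 KD, with a ratio of 0.153 (0.0757 to 0.267). VEGFA was higher, at 2.11-fold (1.91 to 2.34), with a ratio to DMSO of 1.71, and CCND1, the cyclin partner of CDK4 and CDK6, had a ratio of 0.626 (0.595 to 0.66). In PD0332991 against DMSO the median was 0.58, with 2 targets at least 2-fold higher and none lower. Of all 13443 genes, 7.49% were that high and 7.06% that low.

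**Figure D4:**
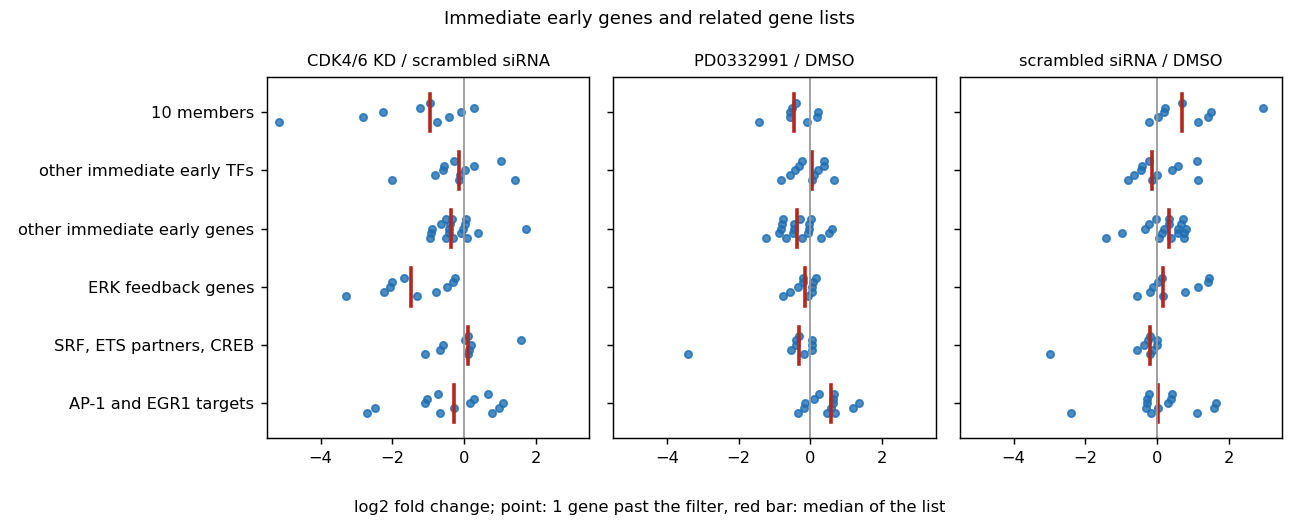
Log2 fold change of each gene past the filter in 6 lists and 3 comparisons, with a red bar at the median of the list. In CDK4/6 KD against scrambled siRNA the medians of the 10 members and of the ERK feedback genes are -0.96 and -1.49, and in PD0332991 against DMSO they are -0.46 and -0.14.

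Heat shock and interferon-stimulated genes were counted in the same comparisons. In scrambled siRNA against DMSO none of 10 heat shock genes and none of 10 interferon-stimulated genes that passed was 2-fold higher or lower. The medians were 0.04 and -0.02. Of all 13303 genes, 5.3% were that high and 6.64% that low. In CDK4/6 KD against scrambled siRNA the heat shock genes had a median of -0.19 with none at 2-fold, and 2 of the 10 interferon-stimulated genes were at least 2-fold higher and 1, OAS3, was lower, at 0.218 (0.171 to 0.273). In PD0332991 against DMSO the intervals of all 10 heat shock genes lay below 1, with a median of -0.62 and none at 2-fold. For this count too, the share of all genes with such intervals is not given here.

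The genes whose levels across the 4 libraries lay nearest to those of EGR1, by distance between centred log2 levels over 10666 genes, were LAIR2, PPP2R2C, AKAP12, SLC2A1 and DUSP5, at distances of 1.28 to 1.54. AKAP12 had 3090, 1820, 16801 and 1657 reads in DMSO, PD0332991, scrambled siRNA and CDK4/6 KD, and SLC2A1, the glucose transporter GLUT1, had 3309, 2599, 8603 and 1092. Both repeated the high scrambled siRNA and low knockdown library of EGR1 over a narrower range. Unlike EGR1, both also had fewer reads in PD0332991 than in DMSO, and AKAP12 in PD0332991 was near its knockdown count. LYAR, FAM166A, TUBB4B, CD3EAP and NUP35 lay nearest to FOSL1, at distances of 0.08 to 0.14, so the genes nearest to EGR1 were much looser matches. LYAR had 1729, 664, 2128 and 1033 reads, low in both libraries with CDK4/6 targeted. FAM166A and TUBB4B overlap on opposite strands and had nearly equal reads, 3688 and 3966 in DMSO, so their reads cannot be told apart. These are likenesses over 4 libraries and carry no test.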

How the data were processed

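Whole-number read counts per gene symbol were deposited by the authors for 4 HepG2 libraries, 1 per condition, with no normalization. Per the labels, the submitters' processing notes name Bowtie2, edgeR and hg19, without versions, and the read counter and the annotation are not given in the sources used here. The methods name no molecular identifiers, so PCR copies add to the counting error. Entries of repeated symbols (286 of them) were summed.

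Scaling used TMM factors of edgeR 4.0.16 over all genes (0.957 to 1.03, R 4.3.3). Fold changes used a pseudocount of 0.5 reads and genes with 10 reads in either library, and a gene was counted where it differed at least 2-fold. Counts of 3 or fewer were taken as the floor. Intervals are 95% Clopper-Pearson intervals (scipy 1.17.1). No test across genes was possible with 1 library per condition. The procedure was tested on simulated counts that held counting error alone. Genes as rare as FOS, FOSB and ZFP36 were left out of the simulation, and it says nothing of variation between cultures. Alternatives were DESeq2 1.42.0 size factors, total counts, limma 3.58.1 quantile normalization, other pseudocounts, filters and thresholds, the other arm's control, 1 entry per symbol and, added after seeing the data, leaving out EGR1.

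The members and gene lists were chosen with earlier results of these data known. Within a list, up to 4 genes were named by the interval end farthest from 1 in CDK4/6 KD against scrambled siRNA, plus paralogs and binding partners of the members. Some genes that this rule would name are not reported here. HOOK2, IGFBP1, TNS4 and the marker genes with 0 reads were named beside a result they touch. Likeness used log2 CPM plus 0.5 for genes averaging 50 or more reads. Sequences are from RefSeq and GENCODE tables on GRCh38 and were matched by symbol, not by position.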

Additional observations from a re-analysis of the deposited data

Results flagged for a closer look

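JUN was picked out because its fold changes under CDK4/6 targeting pointed in opposite directions in the knockdown and inhibitor arms. Its log2 fold change was 0.29 in CDK4/6 KD against scrambled siRNA and -0.56 in PD0332991 against DMSO. With 1 library per condition the difference between the arms was not tested.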

How the results depend on the processing

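Of 232 alternative fold changes of single members, 230 kept their sign and 8 moved beyond the counting interval. With total counts alone, ZFP36 in CDK4/6 KD against scrambled siRNA changed from -0.08 to 0.02 and FOSL1 in scrambled siRNA against DMSO from 0.02 to -0.04, both with intervals that include no difference. Against DMSO in place of scrambled siRNA, the median log2 fold change of the members in CDK4/6 KD moved from -0.96 to -0.42, and against scrambled siRNA in place of DMSO that in PD0332991 moved from -0.46 to -1.26, with 6 members in place of 1 at least 2-fold lower. Where the whole counting interval had to lie past 2-fold, 2 members in place of 4 were lower in CDK4/6 KD and 0 in place of 1 in PD0332991. With no filter, 2 were lower in PD0332991. Without EGR1 the median in CDK4/6 KD was -0.86. Total counts alone moved the median of all genes in CDK4/6 KD against scrambled siRNA by 0.10. No other scaling, pseudocount, filter or threshold moved a count of members by over 1.5 times. No paired analysis was possible because each condition had 1 library and the labels carry no replicate numbers. Depth limited FOS, FOSB and ZFP36, which had 16 reads or fewer in every library.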
